A study of Mus musculus with 18 samples.

Results

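The response of control epidermis to complete Freund's adjuvant (CFA) was measured as the difference between 3 CFA and 3 naive epidermal samples, 6 of the 18 samples of the series. Members were taken from the labels and from the probe annotation: 23410 of the 35556 probe sets on the array are paired with at least 1 gene, and all of these were tested. Of them, 21789 are paired with exactly 1 gene and cover 19939 genes. The series asks how the ion channel TRPA1 bears on touch and on inflammatory pain. It compares control and Trpa1 mutant mice in epidermis and in dorsal root ganglia. Each sample was hybridised to 1 whole-transcript array, and values are log2 intensities, so that a difference of 1 is a 2-fold change.

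Control mice (K14Cre-Trpa1+/+, labelled wild type) had intact Trpa1 and carried a Cre transgene driven by the keratin 14 promoter, which is active in basal keratinocytes and also in sebaceous and sweat glands. They were adult males of at least 7 weeks on a mixed background of C57BL/6, CBA and Swiss Webster, kept as a colony apart from the mutants. In the CFA group, 50 µl of undiluted CFA was injected under the sole of the hindpaw, and the glabrous skin was taken 2 days later. The naive group was not injected, so injection, oil and mycobacteria cannot be told apart. The epidermis was peeled off after dispase digestion. The labels number the samples and do not say that each came from a separate animal, and p-values measure only the spread between these samples.

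CFA is an emulsion of mineral oil and killed mycobacteria that causes a local swelling rich in leukocytes, with heat and touch hypersensitivity. Epidermis is mostly keratinocytes, which divide in the basal layer, leave it as spinous cells, fill with keratohyalin in the granular layer and end as the cornified envelopes and lipid sheets of the barrier. Keratinocytes also answer cytokines. Interferons act through JAK kinases and STAT factors on the interferon-stimulated response element (ISRE) and the gamma-activated site (GAS) of their target genes, while interleukin-1 and toll-like receptor signals act through NF-kappaB.

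Array medians of the deposited values were 5.37, 5.38 and 5.41 in naive and 5.48, 5.44 and 5.44 in CFA samples. A background level was set on each array from the probe sets of receptors for odours and pheromones. It was 4.59, 4.58 and 4.62 in naive and 4.78, 4.71 and 4.70 in CFA samples. Both levels were higher in every CFA sample than in every naive sample, and small rises of dim genes are to be read against this shift. Of the probe sets tested, 68.5 to 69.5% lay above background. Replicates correlated at 0.996 to 0.9961 among naive and 0.9921 to 0.9934 among CFA arrays. Trpa1, the gene targeted in this series, read 3.61, 3.97 and 3.82 in naive samples and 3.89, 3.86 and 3.79 after CFA. All 6 values were below background, so these arrays give no level for it. Keratinocyte markers were bright, with Krt14 at 12.44, 12.40 and 12.44, Krt5 at 12.52, 12.47 and 12.49, Krt1 at 13.08, 13.21 and 13.17 and Krt10 at 13.33, 13.45 and 13.41 in naive samples. Krt9, a keratin of palm and sole skin, read 11.72, 11.89 and 11.99 there.

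After CFA, 2683 probe sets were higher and 3467 lower at an adjusted p under 0.05 (limma, Benjamini-Hochberg). These are 11.5% and 14.8% of those tested, and they are the background against which each gene group below is to be read. After centring every array on its own median, the counts were 1863 and 4183, and the share of higher calls went from 43.6% to 30.8%. With a further quantile normalization, 3070 were higher and 3040 lower, and the share was 50.2%. At 2-fold or more, 292 probe sets, or 1.25%, were higher and 813, or 3.47%, were lower. At 4-fold, 75 were higher and 212 lower, and at 8-fold 34 and 55. The median difference over all probe sets was 0.03, and 43.8% of them had groups that did not overlap. With the kind of test that the methods name, an analysis of variance that takes its spread from each probe set alone, 1422 were higher and 2473 lower. In bulk samples, fewer cells of a type and less RNA per cell cannot be told apart.

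**Figure D1:**
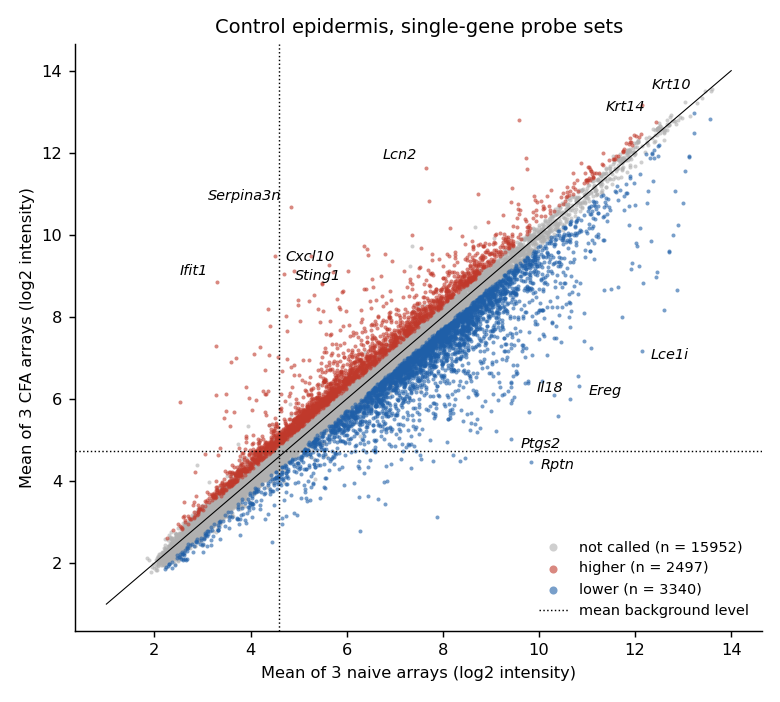
Mean log2 intensity of 3 CFA arrays (vertical axis) against that of 3 naive arrays (horizontal axis) for 21789 single-gene probe sets of control epidermis. Red points were called higher and blue points lower at an adjusted p under 0.05, the solid line marks equal values and dotted lines the mean background level. Falls are more often large than rises, with 203 against 67 of these probe sets past 4-fold.

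The largest rise was that of Serpina3n, a serine protease inhibitor of the acute phase, which read 5.43, 4.79 and 4.29 in naive samples and 10.22, 10.32 and 11.45 after CFA. The groups did not overlap, and the rise was 56.9-fold (adjusted p 4.77e-06), although only 2 naive values were above background. Lcn2, which encodes the siderophore-binding protein lipocalin 2, rose 15.8-fold, from 7.88, 7.41 and 7.66 to 11.39, 11.37 and 12.14. The other 13 of the 15 largest rises included Ifit1, Cxcl10, Sting1, Oasl2, Gbp7, Iigp1, Cxcl9, Irgm1 and Xaf1, all described below with their groups. The 15 largest falls were led by Rptn, Lce1i, Lce3c, Gm11559, Klk9, Ereg, Crct1 and Ptgs2. Rptn, Lce1i, Lce3c and Crct1 belong to the cornified layer, Klk9 is a kallikrein protease, Ereg a ligand of the EGF receptor and Ptgs2 an enzyme of prostaglandin synthesis. The others were Lce1f, Lce1g and Lce1h of the late cornified envelope, Trex2, Ly6m, Car6 and Krtap7-1.

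**Figure D2:**
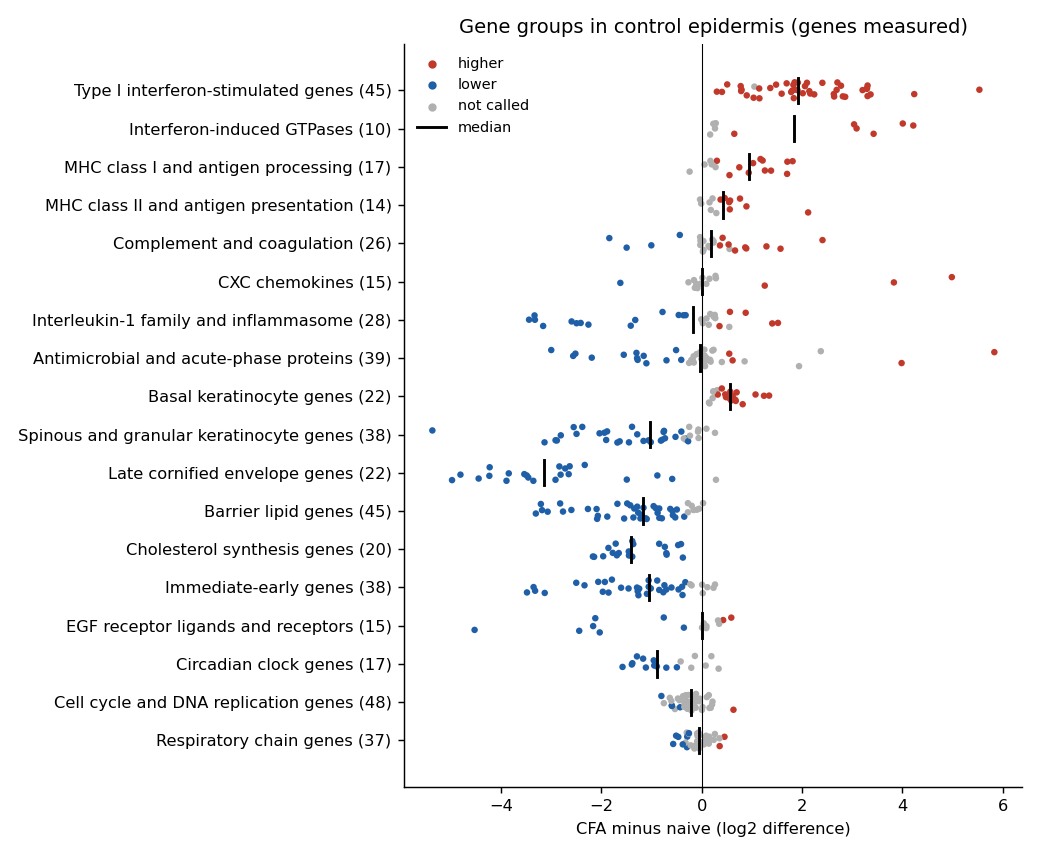
Difference between CFA and naive control epidermis (log2, horizontal axis) for the members of 18 gene groups, with the number of genes measured in brackets. Each point is 1 gene (red higher, blue lower, grey not called), and the black bar is the group's median. The interferon-stimulated genes lie to the right with a median of 1.92, the late cornified envelope genes to the left with a median of -3.13.

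Type I interferon-stimulated genes rose nearly throughout. Of 45 measured, 44 were higher and none lower, against 11.5% of all probe sets, 37 of them by 2-fold or more, with a median of 1.92 against 0.03 over all. By that analysis of variance, 13 of the 45 were higher. Only Oas3 missed the threshold, at 4.88, 4.71 and 4.87 in naive samples and 5.71, 6.82 and 5.07 after CFA (adjusted p 0.0548). Ifit1, whose product binds viral RNA lacking a normal cap, read 3.23, 3.28 and 3.41 in naive samples and 8.82, 10.03 and 7.67 after CFA. All naive values were below background and all CFA values far above it, a rise of at least 19-fold (adjusted p 3.26e-05). Oasl2, an oligoadenylate synthetase-like protein, went from 5.18, 5.39 and 5.21 to 9.30, 10.72 and 8.47, a rise of 18.8-fold. Rtp4 rose at least 5.3-fold and Xaf1 at least 9.11-fold.

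The factors that carry the interferon signal moved with these genes. Irf7, the factor that drives interferon alpha production, read 5.28, 5.46 and 5.77 in naive samples and 8.03, 9.11 and 7.30 after CFA and rose 6.23-fold (adjusted p 0.00078). Stat2 rose 6.45-fold, from 6.08, 5.77 and 5.86 to 8.51, 9.51 and 7.77, and its partner Irf9 3.44-fold, from 6.69, 6.68 and 6.49 to 8.19, 8.97 and 8.05. Irf1, a factor induced by interferon gamma, rose 3.84-fold, from 4.71, 4.84 and 4.96 to 6.66, 7.14 and 6.53. The feedback genes rose too: Usp18, which removes ISG15 and blocks the type I receptor, 9.77-fold from 4.37, 5.07 and 4.77 to 7.89, 8.89 and 7.28, and Socs1 1.49-fold from 5.70, 5.61 and 5.87 to 6.21, 6.58 and 6.12. The poly-ADP-ribosyltransferase Parp14 rose 9.88-fold and its relative Parp9 6.52-fold.

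The size of the rise differed between the CFA samples in a shared order. Of the 44 genes called, 41 were highest in replicate 2 and 41 lowest in replicate 3. Among all 248 single-gene probe sets higher by 2-fold, 130 were highest in replicate 2 and 110 lowest in replicate 3. The mean log2 intensity over the 45 genes was 4.88, 4.89 and 4.88 in naive and 6.84, 7.81 and 6.23 in CFA samples. The median SD of the called genes was 0.878 among CFA samples against 0.151 among naive samples. The naive means lay close together and the CFA means far apart, but all 3 CFA means were above all 3 naive means.

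Promoters of these genes are shown because the ISRE is the element through which type I interferons act. The sequences are RefSeq promoters of build GRCm38.p6, 250 bases before to 50 after the start, on the gene's strand from 5′ to 3′, with matches to the ISRE core GAAANNGAAA or its reverse complement TTTCNNTTTC in capitals. Overlapping matches run together. The first pair are whole promoters, of the interferon-stimulated gene and the chemokine with the largest rise, and the rest are stretches around the core.
Ifit1, chr19:34640639-34640938, plus strand: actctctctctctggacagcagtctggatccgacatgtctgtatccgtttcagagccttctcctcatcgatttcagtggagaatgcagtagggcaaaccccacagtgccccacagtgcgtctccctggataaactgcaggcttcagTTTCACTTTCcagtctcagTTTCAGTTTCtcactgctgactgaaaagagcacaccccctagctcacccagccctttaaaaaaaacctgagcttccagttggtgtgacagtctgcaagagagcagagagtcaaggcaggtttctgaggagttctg
Cxcl10, chr5:92348840-92349139, minus strand: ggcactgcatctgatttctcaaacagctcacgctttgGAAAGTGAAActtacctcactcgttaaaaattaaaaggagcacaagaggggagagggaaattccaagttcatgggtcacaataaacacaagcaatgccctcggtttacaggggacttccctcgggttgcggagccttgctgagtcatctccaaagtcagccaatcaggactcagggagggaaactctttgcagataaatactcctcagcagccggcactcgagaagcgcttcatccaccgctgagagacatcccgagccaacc
Ifit3, chr19:34583357-34583398, plus strand: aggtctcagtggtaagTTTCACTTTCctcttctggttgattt
Rsad2, chr12:26456547-26456588, minus strand: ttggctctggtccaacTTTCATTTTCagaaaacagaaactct
Stat2, chr10:128270260-128270301, plus strand: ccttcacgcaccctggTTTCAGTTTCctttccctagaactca
Gbp7, chr3:142530267-142530308, plus strand: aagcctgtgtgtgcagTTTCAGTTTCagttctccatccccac
Irgm1, chr11:48871425-48871466, minus strand: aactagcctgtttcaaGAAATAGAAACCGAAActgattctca

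The core was held by the promoter of 15 of the 32 type I interferon-stimulated genes that have a promoter in the table (46.9%) and by all 5 GTPases that have one. Over all 27025 genes with a promoter the share was 3.99%. It was 6.00% among 1718 genes called higher, 25.1% among 167 higher by 2-fold and 40.4% among 47 higher by 4-fold, against 0.654% among 153 genes lower by 4-fold. The GAS core TTCNNNGAA, which is its own reverse complement, was in 7 of the 32 type I interferon-stimulated genes (21.9%) and in 2 of the 5 GTPases. It was in 10.1% of the genes called higher, 14.4% of those higher by 2-fold and 8.84% of those lower by 2-fold. At 4-fold it was in 10.6% of the higher and 11.8% of the lower genes, against 9.55% of all genes. It is shown in capitals for Irf1 and Gbp7, where the stretch of Gbp7 ends within its next match.
Irf1, chr11:53769908-53769948, plus strand: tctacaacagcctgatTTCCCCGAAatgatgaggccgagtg
Gbp7, chr3:142530214-142530254, plus strand: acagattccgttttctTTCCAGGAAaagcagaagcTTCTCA
A match is a description of these letters and not of a bound factor. The windows of Serpina3n, Lcn2, Cxcl9, Oasl2, Irf7, Xaf1, Rnf213, Irf1, Psmb9 and Tap1 did not hold the ISRE core.

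Of 10 interferon-induced GTPases measured, which attack the vacuoles of intracellular parasites and bacteria, 6 were higher and none lower, with a median of 1.84. Gbp7 read 4.73, 5.04 and 4.95 in naive samples and 8.90, 10.43 and 8.02 after CFA, with every CFA value far above every naive value, a rise of 18.6-fold (adjusted p 0.000222). Irgm1 rose 10.7-fold, from 5.02, 5.04 and 4.89 to 8.11, 9.45 and 7.67. Iigp1 was below background in naive samples and read 7.64, 8.82 and 5.40 after CFA, a rise of at least 6.47-fold. Gbp3 rose at least 5.7-fold and Gbp2b at least 6.41-fold. The 4 members not called, Gbp4, Gbp5, Gbp8 and Gbp11, were below background on all 6 arrays.

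Among 37 nucleic acid sensors and interferon signalling genes, 16 were higher and 1 lower. Sting1, the membrane adaptor of the cytosolic DNA sensor, read 4.71, 4.49 and 4.87 in naive samples and 9.03, 9.06 and 9.02 after CFA. It rose 20.3-fold (adjusted p 8.71e-08), although only 2 naive values were above background. In contrast to the effector genes, its 3 CFA values lay close together. Cgas, the sensor itself, read 4.69, 4.56 and 4.59 in naive samples and 4.26, 4.60 and 4.39 after CFA and was not called. Only its value in naive replicate 1 was above background, so these arrays say little about its level. The RNA sensors Ifih1 and Ddx58 rose 9.84-fold and 6.64-fold, from 5.84, 5.17 and 5.47 to 8.42, 9.82 and 8.14 and from 6.80, 6.87 and 6.71 to 9.33, 10.23 and 9.01. Their adaptor Mavs read 8.20, 8.15 and 8.06 in naive samples and 8.22, 8.21 and 8.10 after CFA and was not called. Ifngr1, the ligand-binding chain of the interferon gamma receptor, rose 3.34-fold, from 7.86, 7.76 and 7.73 to 9.10, 9.70 and 9.77, and Ifnar2 of the type I receptor 1.92-fold. Of the interferons, Ifnb1 was below background on all 6 arrays, at 3.43, 3.53 and 3.68 in naive samples and 3.83, 3.77 and 3.97 after CFA, and was called with a difference of 0.31 (adjusted p 0.0498). That call was lost under 12 of 15 other settings, and its adjusted p was 0.0449 to 0.171 with 1 sample left out in turn. Ifng read 4.87, 4.83 and 5.39 in naive samples and 5.10, 5.09 and 5.09 after CFA and was not called. The member that was lower was Myd88, the adaptor of toll-like and interleukin-1 receptors, at 1.34-fold (adjusted p 0.0303, and 0.00411 to 0.0855 with 1 sample left out in turn).

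Genes of MHC class I and of its peptide loading mostly rose. Of 17 measured, 12 were higher and none lower, with a median of 0.94, and 8 passed 2-fold. By that analysis of variance, 6 of the 17 were higher. B2m, the light chain of class I, read 9.47, 9.49 and 9.35 in naive samples and 11.07, 11.45 and 10.90 after CFA and rose 3.25-fold (adjusted p 2.63e-05). The immunoproteasome subunits Psmb8 and Psmb9 rose 3.51-fold and 2.39-fold, and the peptide transporter Tap1 3.26-fold, from 6.65, 6.36 and 6.52 to 7.997, 8.83 and 7.82. Psmb9, Tap1, Psmb8 and Tap2 are neighbours on chromosome 17 and were all past 2-fold. Erap1, which trims the peptides, rose 2.32-fold.

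MHC class II presents peptides to helper T cells and is found on Langerhans cells in resting epidermis. Of 14 genes measured, 8 were higher and none lower, with a median of 0.42. Cd74, the invariant chain, read 9.13, 9.08 and 9.06 in naive samples and 9.95, 10.09 and 9.91 after CFA, a rise of 1.86-fold (adjusted p 9.33e-05) with no overlap. H2-Ab1 and H2-Eb1 rose 1.7-fold and 1.47-fold. The class II transactivator Ciita rose 1.46-fold, from 5.06, 5.27 and 5.17 to 5.82, 5.65 and 5.68. The largest rise was that of Lgmn, a lysosomal protease that cleaves the invariant chain, from 7.60, 7.64 and 7.42 to 9.51, 9.79 and 9.72, or 4.35-fold.

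**Figure D3:**
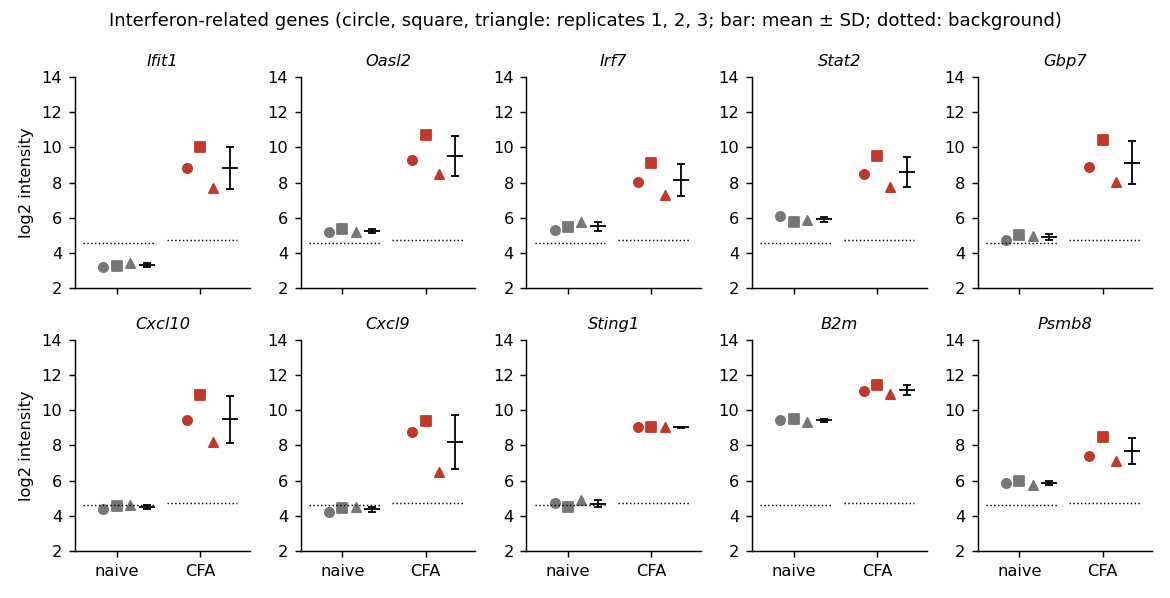
Log2 intensity (vertical axis) in naive (grey) and CFA (red) control epidermis for 10 interferon-related genes. Circles, squares and triangles are replicates 1, 2 and 3, the bar beside them is the mean ± SD (n = 3), and dotted lines are the mean background level. In Ifit1, Oasl2, Irf7, Stat2, Gbp7, Cxcl10, Cxcl9 and Psmb8 the square lies highest and the triangle lowest after CFA, while the 3 values of Sting1 coincide at 9.03, 9.06 and 9.02.

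Among the CXC chemokines, those that bind the receptor CXCR3 of T cells stood out. Cxcl10 read 4.36, 4.55 and 4.59 in naive samples and 9.42, 10.86 and 8.17 after CFA, below background in every naive sample and far above it in every CFA sample. The rise was at least 29.7-fold (adjusted p 0.000138). Cxcl9 went from 4.21, 4.41 and 4.49, also below background, to 8.78, 9.36 and 6.46, a rise of at least 12.2-fold. Cxcl11, the remaining ligand of that receptor, was below background on all 6 arrays. Of the neutrophil chemokines, Cxcl1 rose 2.39-fold, from 5.41, 5.58 and 5.41 to 6.54, 6.49 and 7.14, while Cxcl2, Cxcl3 and Cxcl5 were below background throughout. Cxcl14, a chemokine made by resting epidermis, read 8.19, 8.43 and 8.19 in naive samples and 7.23, 6.39 and 6.33 after CFA and fell 3.08-fold. In all, 3 of 15 measured were higher and 1 lower.

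Of 20 other chemokines, 3 were higher and 3 lower. The monocyte chemokines Ccl2 and Ccl7 rose 1.77-fold and 1.68-fold. Ccl3 rose 1.62-fold (adjusted p 0.00176 to 0.058 with 1 sample left out in turn). Ccl2 went from 4.77, 4.82 and 4.93 to 5.64, 5.85 and 5.49. Ccl6 read 8.10, 7.63 and 7.78 in naive samples and 5.52, 5.66 and 5.70 after CFA, with no overlap, and fell 4.64-fold (adjusted p 3.79e-06). Of 22 chemokine receptors, 3 were higher and 2 lower. Ackr3, an atypical receptor that removes CXCL12, rose 2.04-fold, from 5.68, 5.66 and 5.76 to 6.80, 6.68 and 6.70. Cxcr2 fell 2.82-fold, from 6.71, 6.66 and 6.78 to 5.18, 4.83 and 5.65, and Ccr9 at least 6.06-fold, from 7.68, 7.53 and 6.78 to 4.64, 4.56 and 3.74.

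Of 28 genes of the interleukin-1 family and the inflammasome, 14 were lower and 5 higher, against 14.8% and 11.5% of all probe sets, with a median of -0.17. Il18, which keratinocytes store as a precursor, read 9.82, 9.68 and 9.80 in naive samples and 6.48, 6.55 and 6.28 after CFA, a fall of 10.1-fold (adjusted p 2.16e-07). Il1a fell at least 8.41-fold, from 7.81, 7.93 and 7.67 to 4.23, 4.66 and 4.55, all 3 below background. The interleukin-36 ligands Il1f6 and Il1f8 fell 8.93-fold and 10.9-fold, the latter from 9.39, 9.57 and 9.49 to 6.23, 5.86 and 6.04. The antagonists fell as well: Il1f5 of the interleukin-36 receptor 4.78-fold, Il1rn of the interleukin-1 receptor 2.66-fold, and the decoy receptor Il1r2 5.63-fold, from 8.74, 8.67 and 8.66 to 6.19, 6.19 and 6.22. Il1f6, Il1f5, Il1f10 and Il1rn follow each other on chromosome 2 and all fell past 2-fold.

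Among the 5 members that were higher, the inflammatory caspases Casp4 and Casp12 rose 2.87-fold and 2.65-fold, from 6.92, 6.81 and 6.69 to 8.005, 8.53 and 8.44 and from 6.09, 5.82 and 5.96 to 7.20, 7.61 and 7.27. Pycard, the inflammasome adaptor, rose 1.28-fold (adjusted p 0.0249 to 0.0575 with 1 sample left out in turn). Il1b read 4.57, 3.85 and 4.33 in naive samples and 4.82, 5.02 and 4.55 after CFA and missed the threshold (adjusted p 0.0561). All its naive values and that of CFA replicate 3 were below background. Among the cytokines of skin inflammation, Il6 was below background on all 6 arrays, and Tnf read 5.24, 5.31 and 5.48 in naive samples and 5.20, 5.49 and 5.42 after CFA. Of 31 such genes, 5 were higher and 2 lower, the largest rise being that of Csf1, the macrophage growth factor, at 3.23-fold from 5.38, 5.73 and 5.54 to 7.04, 7.42 and 7.26.

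Both chains of the oncostatin M receptor rose. Osmr read 7.46, 7.66 and 7.40 in naive samples and 8.96, 9.32 and 9.27 after CFA, or 3.2-fold (adjusted p 1.31e-05), and its partner Il6st rose 2.73-fold, from 8.14, 8.01 and 8.11 to 9.43, 9.75 and 9.43. The interleukin-4 and interleukin-13 receptor chains Il4ra and Il13ra1 rose 1.48-fold and 1.78-fold. Il22ra1, the interleukin-22 receptor of keratinocytes, fell 2.11-fold. Of 20 cytokine receptors, 7 were higher and 3 lower. Of 21 NF-kappaB genes, 7 were higher and 5 lower. The adhesion molecule Icam1 rose 3.62-fold, from 6.34, 6.24 and 6.34 to 8.07, 8.24 and 8.17, and Bcl3 2.46-fold, while the inhibitors Nfkbia and Nfkbib fell 2.02-fold and 1.78-fold.

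Acute-phase and antimicrobial genes split. Of 39 measured, 4 were higher and 13 lower. Those higher were Serpina3n, Lcn2 and the lysozyme genes Lyz1 and Lyz2, the latter pair by 0.55 and 0.62 and below background in both groups. With 1 sample left out in turn, Lyz2 had an adjusted p of 0.0249 to 0.0936. Among the beta-defensins, Defb14 fell 7.99-fold, from 7.70, 7.43 and 7.50 to 4.86, 5.03 and 3.75, Defb3 5.9-fold, Defb6 4.56-fold and Defb1 2.42-fold. For Defb14, 2 of the 3 CFA values were above background. Defb6 fell most in replicate 2, at 7.49, 5.66 and 7.38 against 8.997, 9.12 and 8.99. Wfdc21 fell 5.72-fold, from 10.77, 10.56 and 10.65 to 8.27, 8.22 and 7.95.

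The alarmins S100a8 and S100a9, made in stressed keratinocytes and in neutrophils, were not called. S100a8 read 8.23, 5.22 and 8.63 in naive samples and 9.36, 8.08 and 11.76 after CFA (adjusted p 0.117) and S100a9 8.11, 5.42 and 8.40 in naive samples and 8.99, 7.21 and 11.56 after CFA. Naive replicate 2 lay about 3 below the other naive samples, and CFA replicate 3 lay above the other CFA samples. The stress keratin Krt16 read 9.03, 7.79 and 9.20 in naive samples and 10.13, 8.75 and 11.69 after CFA, and Krt6b 10.09, 7.07 and 10.05 in naive samples and 9.72, 8.64 and 11.41 after CFA. For these genes too, naive replicate 2 was the lowest naive sample and CFA replicate 3 the highest CFA sample. In all 4 genes, CFA replicate 2 was the lowest CFA sample. The groups of all 4 genes overlapped. With replicate number as a block in the fit, S100a8, S100a9 and Krt16 were called higher and Krt6b was not. The labels do not say that the numbers pair the samples.

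Complement genes rose in part, with 9 of 26 complement and coagulation genes higher and 4 lower. C1s1, a protease of the first complement component, read 5.86, 5.71 and 5.95 in naive samples and 8.15, 8.02 and 8.58 after CFA, a rise of 5.3-fold (adjusted p 4.77e-06). Its homologue C1s2 and its partner C1ra rose 2.97-fold and 2.45-fold, and Plau, the urokinase gene, 1.85-fold. Tissue factor, F3, fell 3.58-fold, from 9.87, 9.62 and 10.06 to 8.15, 8.16 and 7.72, and Serpinb2, which inhibits urokinase, fell 2.82-fold.

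**Figure D4:**
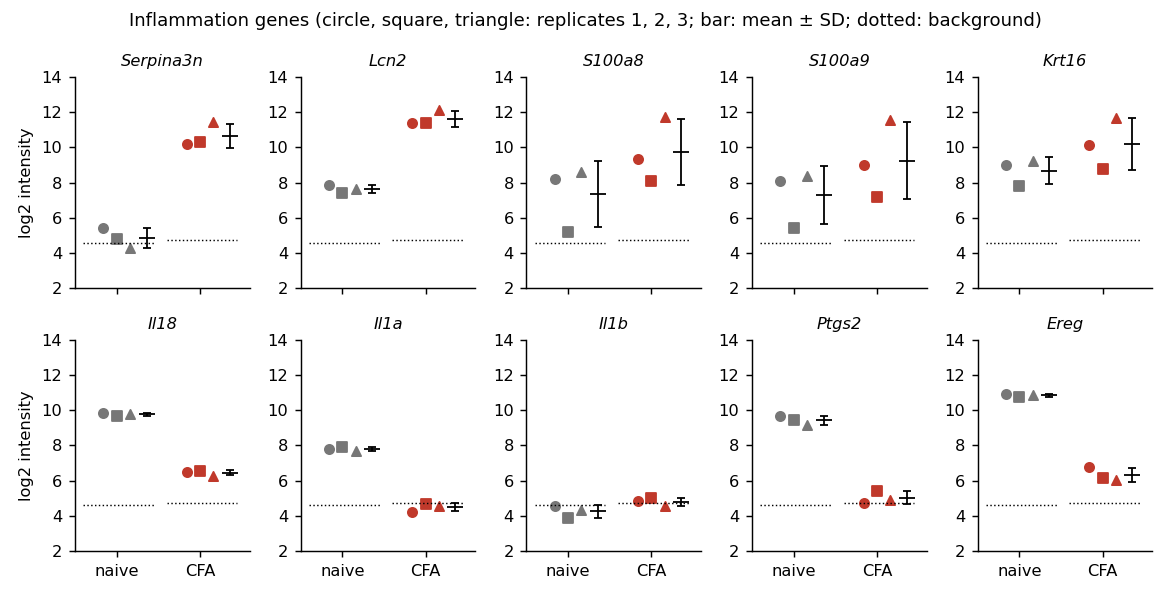
Log2 intensity (vertical axis) in naive (grey) and CFA (red) control epidermis for 10 genes of inflammation. Circles, squares and triangles are replicates 1, 2 and 3, the bar is the mean ± SD (n = 3), and dotted lines are the mean background level. Serpina3n and Lcn2 are higher in every CFA sample, Il18, Il1a, Ptgs2 and Ereg lower, and S100a8, S100a9 and Krt16 overlap between groups, with naive replicate 2 low and CFA replicate 3 high.

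Basal keratinocyte genes were higher after CFA, and most genes of the upper layers were lower. Of 22 basal keratinocyte genes, 16 were higher and none lower, with a median of 0.56. Itga6, the hemidesmosome integrin chain, read 9.59, 9.52 and 9.56 in naive samples and 10.56, 10.60 and 10.73 after CFA, a rise of 2.1-fold (adjusted p 2.73e-05), and Itgb4, its partner, rose 1.62-fold. Sparc and Postn, secreted proteins of the matrix, rose 2.36-fold and 2.54-fold, Sparc from 9.28, 9.21 and 9.26 to 10.47, 10.48 and 10.53. Krt14 rose 1.25-fold (adjusted p 0.0208), a call that was lost under 6 of 16 other settings (adjusted p 0.057 to 0.0761). Among them was each array centred on its median (adjusted p 0.0629). Krt5 was not called, and it passed as higher under 6 of 16 other settings (adjusted p 0.00291 to 0.043). Krt15 rose 1.59-fold. Dsg3 and Cdh3, adhesion proteins of lower layers, rose 2-fold and 2.01-fold.

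Of the keratins made above the basal layer, Krt1 read 13.08, 13.21 and 13.17 in naive samples and 12.96, 12.81 and 12.94 after CFA, Krt10 13.33, 13.45 and 13.41 in naive samples and 13.37, 13.35 and 13.28 after CFA and Krt2 13.26, 13.28 and 13.31 in naive samples and 13.25, 13.29 and 13.08 after CFA, and none of these was called (adjusted p 0.0678 for Krt1). Under 6 of 16 other settings Krt1 passed the test as lower, with an adjusted p of 0.00441 to 0.0464. Of 38 spinous and granular genes, 29 were lower and none higher, with a median of -1.04. Rptn, a cornified envelope protein of the S100 fused type, read 9.54, 9.89 and 10.09 in naive samples and 5.28, 3.86 and 4.27 after CFA and fell 41.3-fold (adjusted p 3.88e-06), with 1 CFA value above background. Lor, the loricrin of the cornified envelope, fell 3.1-fold, from 11.71, 12.03 and 11.89 to 10.58, 10.46 and 9.69. Cdsn, the protein that holds corneocytes together, fell 7.53-fold, Flg2 7.39-fold, and the filaggrin-processing enzymes Asprv1 and Casp14 8.76-fold and 4.1-fold. Of the 29 genes, 23 were lowest in CFA replicate 3, against 414 of 778 single-gene probe sets lower by 2-fold. Krt9 read 11.72, 11.89 and 11.99 in naive samples and 11.58, 10.34 and 10.20 after CFA and fell 2.23-fold (adjusted p 0.022). Its adjusted p was 8.29e-05 to 0.0726 with 1 sample left out in turn.

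The late cornified envelope genes fell most of any group examined. Of 22 measured, 21 were lower and none higher, with a median of -3.13. Lce1i read 12.07, 12.21 and 12.13 in naive samples and 7.18, 7.49 and 6.81 after CFA, a fall of 31.4-fold (adjusted p 2.16e-07), and Lce3c 10.44, 10.36 and 10.38 in naive samples and 5.61, 6.03 and 5.12 after CFA, or 28-fold. Crct1, next to them, fell 21.8-fold, from 12.54, 12.63 and 12.64 to 8.27, 8.62 and 7.58. The smallest fall past 2-fold in the group was that of Lce1j, 2.81-fold, from 13.09, 13.03 and 13.01 to 11.70, 11.79 and 11.16. In the order of RefSeq genes on chromosome 3, 15 measured neighbours from Lce6a to Lce1l all fell past 2-fold, with a median of -3.35, and 4 more from Lce3c to Crct1. These genes are near-identical copies in part, and the array may not tell some of them apart.

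The proteases of shedding fell as a block too. The kallikreins Klk11, Klk10, Klk9, Klk8, Klk7, Klk6 and Klk5 are 7 neighbours on chromosome 7, and all fell past 2-fold. Klk9 read 10.61, 10.68 and 10.64 in naive samples and 6.23, 6.47 and 5.32 after CFA, a fall of 24.9-fold. Klk7, which cuts corneodesmosomes, fell 7-fold, from 11.49, 11.49 and 11.49 to 8.91, 8.72 and 8.43. Their inhibitor Spink5 fell 3.83-fold, from 12.07, 12.17 and 12.07 to 10.31, 10.30 and 9.89. In all, 9 runs of at least 4 neighbouring genes were lower by 2-fold, holding 55 genes, and 3 runs with 14 genes were higher, namely class I processing on chromosome 17, the Trim30 and Trim12 genes on chromosome 7 and the Schlafen genes on chromosome 11.

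Genes of wounded and hyperproliferating keratinocytes were lower more often than higher, with 12 of 31 lower and 3 higher. The small proline-rich genes Sprr1a and Sprr1b fell 7.19-fold and 4.66-fold, Sprr1a from 11.92, 12.10 and 12.21 to 9.50, 9.23 and 8.97. The gap junction genes Gjb6 and Gjb2 fell 4.14-fold and 3.01-fold, from 8.15, 8.26 and 8.35 to 6.30, 6.19 and 6.12 for the former. Stfa3, a stefin, rose 2.48-fold. Krt6a read 8.54, 8.38 and 8.61 in naive samples and 9.06, 8.60 and 9.57 after CFA and Krt17 9.59, 9.69 and 9.61 in naive samples and 9.29, 8.91 and 9.73 after CFA, and neither was called. Of 27 desmosome and junction genes, 13 were lower and 2 higher, with Cldn4 of tight junctions at 4.39-fold lower and Ocln at 1.76-fold lower.

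**Figure D5:**
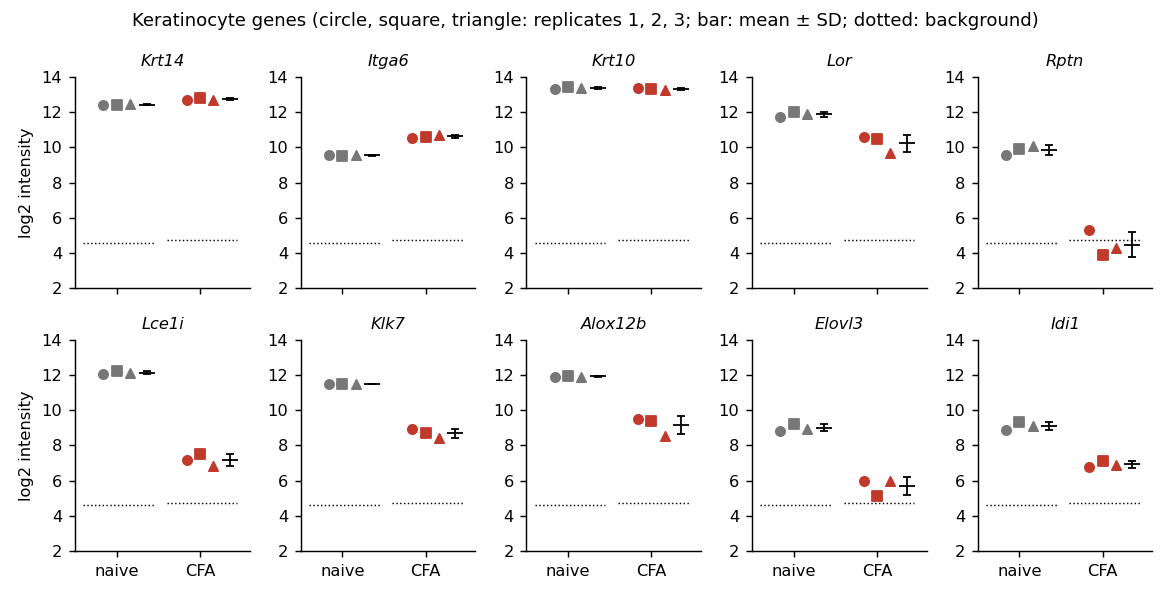
Log2 intensity (vertical axis) in naive (grey) and CFA (red) control epidermis for 10 keratinocyte genes, from basal (Krt14, Itga6) to cornified layers and lipid synthesis. Circles, squares and triangles are replicates 1, 2 and 3, the bar is the mean ± SD (n = 3), and dotted lines are the mean background level. Krt14 and Itga6 are higher after CFA, Krt10 overlaps between groups, and Lor, Rptn, Lce1i, Klk7, Alox12b, Elovl3 and Idi1 are lower in every CFA sample.

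Barrier lipid genes were lower at many steps of the pathway. Of 45 barrier lipid genes, 38 were lower and none higher, with a median of -1.16. The lipoxygenases Alox12b and Aloxe3, which oxidise the linoleate of acylceramides, fell 6.79-fold and 4.24-fold, Alox12b from 11.89, 11.97 and 11.89 to 9.52, 9.39 and 8.56. Smpd1, the acid sphingomyelinase, read 10.30, 10.30 and 10.34 in naive samples and 7.50, 7.69 and 7.29 after CFA, a fall of 7.06-fold (adjusted p 6.14e-07). The lipid transporter of lamellar granules, Abca12, fell 3.2-fold, the glucosylceramide synthase Ugcg 4.19-fold and the ceramide synthase Cers3 2.23-fold. Elovl3, Awat1, Fa2h and Far2, the first being a fatty acid elongase also made in sebaceous glands, fell between 8.39-fold and 9.88-fold. Elovl3 read 8.83, 9.22 and 8.95 in naive samples and 5.98, 5.10 and 6.002 after CFA. No marker group for sebaceous glands was examined, and their part in this result was not tested.

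All 20 cholesterol synthesis genes measured were lower, with a median of -1.42. Idi1, the isopentenyl diphosphate isomerase, read 8.87, 9.32 and 9.11 in naive samples and 6.75, 7.14 and 6.90 after CFA, a fall of 4.49-fold (adjusted p 6.54e-06). Hsd17b7 fell 4.42-fold, Insig1 3.9-fold and Msmo1 3.63-fold. Falls ran along the pathway to Sqle at 2.73-fold and Dhcr7 at 2.61-fold, and the regulator Srebf2 fell 1.33-fold. The smallest fall was that of Ebp, 1.3-fold, from 8.91, 8.94 and 8.87 to 8.32, 8.55 and 8.73 (adjusted p 0.0364, and 0.0144 to 0.104 with 1 sample left out in turn). Of 20 genes, 16 were highest in CFA replicate 2, where the fall was smallest, against 334 of 778 single-gene probe sets lower by 2-fold.

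Of 32 alcohol dehydrogenase and retinoid genes, 16 were lower and 2 higher. The retinol dehydrogenases Dhrs9 and Rdh1 fell 10.01-fold and 5.51-fold, Dhrs9 from 8.64, 8.68 and 8.39 to 5.35, 5.42 and 4.98. The retinol transporter Stra6 fell 3.99-fold. Adh7, a class IV alcohol dehydrogenase that also oxidises retinol, fell 4.95-fold, from 9.48, 9.08 and 9.43 to 7.05, 7.16 and 6.86. Among 21 eicosanoid genes, 4 were lower and 3 higher. Ptgs2, the inducible cyclooxygenase, read 9.66, 9.43 and 9.17 in naive samples and 4.71, 5.43 and 4.92 after CFA, a fall of 21.1-fold (adjusted p 9.11e-07) with 2 CFA values above background. Hpgd, which breaks prostaglandins down, rose 2.57-fold, from 9.12, 8.87 and 8.85 to 10.09, 10.29 and 10.54.

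Immediate-early genes were lower in CFA samples. Of 38 measured, 31 were lower and none higher, with a median of -1.06. Fos read 9.91, 9.88 and 9.34 in naive samples and 6.27, 5.58 and 7.32 after CFA, a fall of 9.98-fold (adjusted p 0.000189). Nr4a1 fell 11.2-fold, from 8.94, 8.54 and 8.85 to 5.18, 5.12 and 5.59, and Dusp1, a phosphatase that ends MAP kinase signals, 10.2-fold, from 12.22, 12.23 and 12.06 to 8.53, 8.44 and 9.49. Fosb, Egr1 and Atf3 fell 8.74-fold, 5.65-fold and 5.05-fold. In many tissues these genes answer handling within minutes. The times from death to dispase and through digestion are not given per sample, and their part in this result was not tested.

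Several ligands of the EGF receptor, made by keratinocytes themselves, fell too. Ereg, epiregulin, read 10.90, 10.76 and 10.86 in naive samples and 6.77, 6.14 and 6.04 after CFA, a fall of 23-fold (adjusted p 5.83e-07), and Epgn, Hbegf and Btc fell 5.43-fold, 4.48-fold and 4.35-fold. Hbegf went from 8.71, 8.33 and 8.73 to 6.16, 6.23 and 6.90. Errfi1, a feedback inhibitor of the receptor, fell 4.09-fold. The receptor Egfr rose 1.5-fold, from 9.39, 9.34 and 9.32 to 9.87, 9.99 and 9.95. Of 15 genes of this system, 7 were lower and 2 higher.

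Of 17 clock genes, 11 were lower and none higher, with a median of -0.89. Per1 read 8.77, 8.62 and 9.25 in naive samples and 7.09, 7.54 and 7.28 after CFA, a fall of 2.98-fold (adjusted p 0.000175), Per2 fell 2.6-fold and Cry2 2.44-fold, and Arntl, whose product drives them, fell 1.93-fold. Arntl and Per1 normally peak at opposite times of day. The sources do not state the hour of sampling, and its part was not tested. Of 48 cell cycle genes, 4 were lower and 1 higher. Mki67 read 10.42, 10.13 and 10.23 in naive samples and 9.88, 10.67 and 10.66 after CFA and Top2a 9.11, 8.62 and 8.79 in naive samples and 8.27, 9.53 and 9.35 after CFA, with CFA replicate 1 the lowest of all samples. Neither was called. With 1 sample left out in turn, Mki67 differed by 0.0099 to 0.40 on the log2 scale (adjusted p 0.0312 to 0.98). Top2a differed by -0.0336 to 0.60 (adjusted p 0.0266 to 0.949). Both passed the test only without CFA replicate 1. Ccnd1 fell 1.75-fold and Ccnd2 rose 1.55-fold (adjusted p 0.0188 to 0.0607 for Ccnd2 with 1 sample left out in turn).

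Metabolic genes moved less evenly. Of 30 glycolysis and hypoxia genes, 15 were lower and 3 higher. Bnip3 and Egln3, targets of the hypoxia factor, fell 5.19-fold and 4.98-fold, Egln3 from 10.58, 10.63 and 10.75 to 8.20, 8.47 and 8.35, while Hif1a itself rose 1.87-fold. Of 37 respiratory chain genes, 7 were lower and 2 higher, with a median of -0.06. Among 34 metallothionein and antioxidant genes, 15 were lower and 6 higher. Hmox1, heme oxygenase 1, fell 5.63-fold, from 9.05, 8.97 and 9.14 to 6.72, 6.68 and 6.28, and Gsta4 5.55-fold. Nqo1, like Hmox1 a known target of the factor NRF2, rose 3.71-fold, from 6.47, 6.67 and 6.34 to 8.29, 8.21 and 8.65. The zinc importer Slc39a14 rose 6.15-fold, from 5.94, 5.86 and 5.62 to 8.39, 8.32 and 8.56. Arg1, arginase 1, fell 6.21-fold, from 8.23, 8.77 and 8.12 to 5.81, 5.75 and 5.66, and Hal, histidine ammonia-lyase, 3.57-fold.

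Of 34 matrix protease and remodelling genes, 8 were lower and 7 higher. Timp3 fell 5.74-fold, from 8.51, 8.87 and 8.63 to 6.09, 6.27 and 6.09. Ctsc, the protease that activates granule enzymes, rose 2.9-fold and Tnc, tenascin C, 2.26-fold, from 5.92, 5.51 and 5.79 to 6.74, 7.04 and 6.98. Of 36 sensory channel and nerve signalling genes, 10 were lower and 5 higher. The nucleotide receptor P2ry4 fell 4.37-fold, from 8.03, 7.77 and 7.58 to 5.61, 5.94 and 5.45, and the touch channel Piezo1 1.75-fold, from 7.98, 8.12 and 7.97 to 7.26, 7.27 and 7.11. Panx3 fell 3.09-fold and Panx1, which releases ATP, rose 1.94-fold. Edn1, endothelin 1, fell 2.04-fold, and the heat channel Trpv3 1.36-fold.

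Of 22 neutrophil markers measured, 11 were below background on all 6 arrays, 2 were higher and 2 lower, and the defining Ly6g, Mmp8, Retnlg and Csf3r were below background in every sample. Their mean log2 intensity was 4.63, 4.34 and 4.76 in naive and 4.84, 4.60 and 5.05 in CFA samples. Cxcr2, the remaining defining marker, was lower, as given above. Lrg1 and Clec4d were the members called higher, by 0.56 and 0.37, and Clec4d was below background throughout (adjusted p 0.0374, and 0.0164 to 0.133 with 1 sample left out in turn). Of 29 monocyte and macrophage markers, 9 were higher and 2 lower. Csf1r rose 1.38-fold, from 7.28, 7.14 and 7.16 to 7.63, 7.65 and 7.71. Tyrobp rose 1.34-fold (adjusted p 0.00783 to 0.0736 with 1 sample left out in turn). Cd68 fell 3.41-fold, from 7.35, 7.68 and 7.35 to 5.44, 5.85 and 5.77. Adgre1 and Mrc1 were below background on all 6 arrays. The mean over these 29 was 4.94, 4.96 and 4.96 in naive and 5.03, 5.16 and 5.04 in CFA samples.

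Langerhans and dendritic cell markers were higher in 9 of 22 cases and lower in none. Of the 9, 4 are MHC class II genes counted above, Cd74, H2-Aa, H2-Ab1 and H2-Eb1. Cd207, the Langerhans lectin, rose 1.3-fold, from 6.53, 6.37 and 6.42 to 6.91, 6.93 and 6.62 (adjusted p 0.0293, and 0.00948 to 0.0994 with 1 sample left out in turn), and Epcam read 7.09, 6.94 and 6.91 in naive samples and 6.59, 6.74 and 7.05 after CFA. The mean over the 22 was 5.91, 5.87 and 5.88 in naive and 6.13, 6.13 and 6.14 in CFA samples. Of 29 T and natural killer cell markers, 7 were higher and none lower, and 20 were below background on all arrays. Thy1 rose 2.48-fold, from 7.43, 6.90 and 7.21 to 8.43, 8.58 and 8.45, Cd3e 1.32-fold (adjusted p 0.0372, and 0.0247 to 0.119 with 1 sample left out) and Foxp3 1.42-fold, from 4.73, 4.90 and 4.96 to 5.38, 5.23 and 5.51. Thy1 is also a fibroblast gene. The mean over the 29 was 4.22, 4.21 and 4.29 in naive and 4.54, 4.42 and 4.38 in CFA samples. Of 21 fibroblast and dermis markers, 9 were higher and 2 lower. Col1a2 was 1.35-fold and Col3a1 1.32-fold higher (adjusted p 0.0199 to 0.0534 and 0.0183 to 0.0719 with 1 sample left out in turn). Dcn was 1.57-fold lower, from 9.70, 9.74 and 9.73 to 9.24, 9.05 and 8.91. The mean over these markers by sample was 5.88, 5.90 and 5.97 in naive and 6.27, 6.23 and 6.10 in CFA samples. The part of leukocytes and of dermis in the results above was not tested.

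Other cell types gave little. No member of 9 B cell or 6 erythrocyte and platelet markers was called, and 1 of 19 vascular markers was, Cspg4 at 1.28-fold higher (adjusted p 0.0424, and 0.0242 to 0.144 with 1 sample left out in turn). The muscle markers Acta1 and Ckm read 6.05, 6.35 and 6.05 in naive samples and 6.37, 6.23 and 6.29 after CFA and 5.77, 6.16 and 5.93 in naive samples and 6.09, 6.10 and 6.11 after CFA, and neither was called. Of 16 mast cell, basophil and eosinophil markers, 2 were higher and 1 lower, with the defining Cpa3 below background throughout. Of 18 eccrine sweat gland markers, 4 were lower and 2 higher, with Aqp5, the water channel of sweat glands, at 8.77, 8.95 and 8.78 in naive samples and 7.89, 7.47 and 7.09 after CFA, a fall of 2.55-fold (adjusted p 0.000525). The defining sweat gland keratin Krt7 read 6.91, 6.80 and 6.77 in naive samples and 6.68, 6.71 and 6.65 after CFA and was not called. Of 15 melanocyte, Merkel and Schwann cell markers, 2 were higher and 1 lower. The lower one was Tyrp1, at 1.56-fold (adjusted p 0.0125 to 0.14 with 1 sample left out in turn).

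Some of the 15 largest changes lay outside these groups. Cyp7b1, an oxysterol hydroxylase, read 5.78, 5.61 and 5.75 in naive samples and 8.88, 8.76 and 9.66 after CFA, a rise of 10.5-fold (adjusted p 5.03e-06). Cdhr1, a cadherin-related protein known from photoreceptors, rose 12.5-fold, from 5.997, 5.12 and 5.76 to 9.18, 9.20 and 9.43. Rnf213, a large ubiquitin ligase, rose 10.4-fold, and BC023105 from below background to 6.02, 6.94 and 4.84. Among the falls, Trex2, a DNA exonuclease of keratinocytes, read 10.78, 10.86 and 10.81 in naive samples and 6.82, 6.63 and 6.24 after CFA, a fall of 19.1-fold. Ly6m fell 17.5-fold, from 9.80, 9.79 and 9.82 to 6.02, 5.46 and 5.54, and Car6, a secreted carbonic anhydrase, 14.7-fold, from 9.13, 9.13 and 9.02 to 5.21, 5.32 and 5.11. Krtap7-1, a keratin-associated protein of hair, and Gm11559 fell at least 12.3-fold and at least 8.85-fold to below background. On chromosomes 11 and 16, 20 keratin-associated genes and their neighbours, Krtap7-1 among them, fell past 2-fold in 4 unbroken runs. The skin taken was glabrous, no marker group for hair follicles was examined, and their part in this result was not tested.

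The mutant epidermis came from K14Cre-Trpa1 fl/fl mice, in which the same Cre deletes Trpa1, with 3 naive and 3 CFA samples. There, 3028 probe sets were higher and 3068 lower after CFA. The difference between the responses was tested over all 12 epidermal arrays, and 6 of 23410 probe sets, or 0.0256%, passed an adjusted p of 0.05. Without CFA control replicate 3 the count was 87, and without CFA mutant replicate 3 it was 76. It was 2 to 8 with 1 of the other arrays left out, and 0 with all probe sets tested, against 1073 and 861 probe sets whose CFA minus naive value was larger and smaller in mutant epidermis at an unadjusted p under 0.05 in the test of 23410. For Cxcl10, CFA minus naive was 4.98 on the log2 scale in control and 0.68 in mutant epidermis (limma, adjusted p 0.0447 for the difference). For Clec2d, a ligand of a natural killer cell receptor, these were 3.24 and 1.18 (adjusted p 0.031). For Nr4a1, the differences were -3.48 and -1.17, and for Adh7 -2.31 and -0.40 (adjusted p 0.00746 for both). All of these are differences within a genotype, and levels were not compared between genotypes. Serpina3n and Lcn2 differed by 5.83 and 3.98 in control and 4.23 and 4.005 in mutant epidermis, and the differences did not pass (adjusted p 0.678 and 0.997).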

How the data were processed

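Epidermal RNA was hybridised to Affymetrix Mouse Gene 1.0 ST arrays, 1 per sample. The authors deposited log2 values after RMA (background subtraction, quantile normalization, median polish), and the submitters' processing notes also name Partek. Of 35556 probe sets, 12146 are unnamed here and 1621 carry several genes, which were tested but not named. The deposited log2 values were compared with limma 3.58.1 in R 4.3.3 (lmFit, eBayes, two-sided, Benjamini-Hochberg over 23410 probe sets), 3 CFA against 3 naive arrays as labelled. The methods used an analysis of variance, kept here as an alternative beside other scalings, filters, array weights and left-out arrays.

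A gene was read from its brightest single-gene probe set. Background was the 95th percentile of 1225 receptor probe sets per array. A group below it on all its arrays has only a bound, so its fold is given as "at least", computed against the dim group's mean of, per array, the higher of the background level and its own value. Named were the 15 largest rises and falls, up to 6 called members of each of 45 gene lists, and defining markers. Other genes were named after their values were seen, to complete a pathway or run. Members and lists were chosen with earlier results of these data known. Promoters are RefSeq, GRCm38.p6. The fit was tested on simulated data.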

Additional observations from a re-analysis of the deposited data

Results flagged for a closer look

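For 6 genes the response to CFA differed between mutant and control epidermis by limma's test of the difference itself over 12 arrays. With all probe sets tested none passed (limma), and leaving out 1 array gave 2 to 87. The response of Cxcl10 was smaller in mutant epidermis, with a difference of -4.31 on the log2 scale (adjusted p 0.0447), and so were those of Clec2d at -2.06 (adjusted p 0.031) and Gpc3, a glypican, at -1.21 (adjusted p 0.0447). Gpc3 moved by 0.91 in control and -0.30 in mutant epidermis. The falls of Nr4a1, Adh7 and the amino acid transporter Slc6a20a were smaller in mutant epidermis, with differences of 2.31, 1.91 and 1.34 (adjusted p 0.00746, 0.00746 and 0.0447). The paper reports Nr4a1 as lower in mutant than in control epidermis of naive mice, without a false discovery correction. Whether the genotypes differed before or after CFA was not tested here. Slc6a20a differed by -1.99 in control and -0.65 in mutant epidermis. The mutants came from a colony of their own, so genotype and colony cannot be told apart here. Clec2d, Gpc3 and Slc6a20a were named for this test.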

How the results depend on the processing

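Leaving out 1 of the 6 arrays in turn gave 1700 to 2523 probe sets higher and 2619 to 3321 lower, with the fewest higher calls without naive replicate 2 (1700) and naive replicate 1 (1726). The methods' analysis of variance gave 1422 higher, an adjusted p under 0.01 gave 1203 higher and 2254 lower, and the 2-fold threshold of the methods 292 and 813. By the analysis of variance, 13 type I interferon-stimulated genes and 6 MHC class I genes were higher, and with the probe set of lowest p for each gene 2 melanocyte, Merkel and Schwann cell markers were lower. For 10 gene groups, counts of calls in 1 direction were recomputed under every setting, a choice made after seeing the data, and the others of these counts stayed within 1.5 times. The remaining groups were recomputed with the probe set of lowest p alone. For the difference between mutant and control, trend and robust options gave 15 calls, testing all probe sets 0 (limma, against 6 of 23410 probe sets and 1073 and 861 of these at an unadjusted p under 0.05), and leaving out 1 of the 12 arrays 2 to 87.

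The labels do not say that replicate numbers pair the samples. Deviations of same-numbered samples from their group means correlated at -0.24, 0.0004 and -0.07 over all probe sets tested. A value over all probe sets cannot exclude a shared order in some genes. With the replicate block, 2078 probe sets were higher and 2975 lower. Of 231 genes with a difference in the text, 209 were called and 170 kept the call under every setting. The methods' analysis of variance lost 36 calls, testing all probe sets 10, median centring 6, the replicate block 6, and leaving out 1 array between 6 and 12. The block also gave calls for 5 genes of the text that the test without it did not call: S100a8 (adjusted p 0.00103), S100a9 (0.00407), Krt16 (0.00346), Krt6a (0.0257) and Oas3 (0.0346), all higher. No called gene changed direction. Genes not called did: Ifng (-0.0084 with quantile normalization and -0.0007 with median centring), Tnf (-0.0436 and -0.0382) and Mavs (-0.0221 with median centring). Leaving out 1 array gave -0.0348 to 0.24 for Ifng, -0.0338 to 0.11 for Tnf, -0.15 to 1.496 for Krt6b and -0.0336 to 0.60 for Top2a. Their cause was not tested. The number of arrays limits the precision, and 437 called probe sets lay below background in both groups.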
